A study of Homo sapiens with 4 samples.

Results

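Notch signalling was followed through 10 genes chosen by name: the receptors NOTCH1, NOTCH2 and NOTCH3, the ligands JAG1, JAG2 and DLL1, the glycosyltransferase LFNG, the coactivator MAML2, and the target genes HES1 and HEY1. They are 10 of the 18417 genes that have an array probe set with exactly 1 gene symbol, and all 10 stayed among the 13813 genes kept after the genes below the 25th percentile of mean intensity (6.78 on the log2 scale) were set aside. The cells were DAOY, an established human medulloblastoma line, grown in culture and infected with lentivirus. In the ZFX knockdown (KD) group, 3 cultures received a short hairpin RNA (shRNA) against the transcription factor ZFX, namely H2, H3 or H4, with 1 array each. In the control (Ctrl) group, 1 culture received a non-targeting scrambled hairpin (SCR), also with 1 array. All 4 cultures carried a lentiviral vector and had been under 2 ug/mL puromycin for about 48 hours, after 16 to 24 hours of infection and 48 hours of recovery. An uninfected culture was not analysed here. Each hairpin is a single sample, so the 3 knockdown arrays are replicates only in that they share a target. The labels name no replicate cultures of the same hairpin.

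Notch receptors are single-pass membrane proteins that are activated by Jagged or Delta-like ligands on a neighbouring cell. Ligand pulling exposes the receptor to ADAM proteases and then to gamma-secretase, which frees the intracellular domain. That domain enters the nucleus, joins the DNA-binding protein RBPJ and a Mastermind-like coactivator (MAML), and switches on genes such as the HES and HEY repressors. Fringe enzymes such as LFNG extend the sugars on the receptor and thereby tune which ligands it answers to. In the developing cerebellum, Notch signalling is known for keeping progenitors of granule neurons, a source of medulloblastoma, in an undifferentiated state, and NOTCH2 is the receptor best known there.

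Across the series, log2 intensities of any pair of arrays correlated at 0.9921 to 0.9962 over 33297 probe sets, and array medians lay between 226 and 232.3. Levels are given as the deposited linear intensities. ZFX itself (probe set 8166500) read 744.9, 749.6 and 995.6 with H2, H3 and H4, against 1430 on the scrambled array. The 3 knockdown values were thus all below the scrambled one, and the least so with H4. Of 18 markers of cerebellar progenitors and Sonic hedgehog medulloblastoma, 16 were measured and 14 were kept, among them ZIC1, ZIC2, PTCH1, SOX2 and VIM, while GLI1 and NES lay under the intensity filter and ATOH1 was near it (a mean of 6.84 on the knockdown arrays and 6.74 on the scrambled array). Of these 14, 5 were lower and 3 higher with all 3 hairpins, beside 30.6% and 16.9% of all genes kept. The summed intensity of the 16 was 20760, 20920 and 20780 with H2, H3 and H4, against 20610 on the scrambled array. Most of each sum was VIM alone (13940, 13590 and 13540, against 13030), so the sums say little of the other markers. Of 12 endothelial markers, 6 were kept, of which 3 were lower and 0 higher with all 3 hairpins, beside the same shares. PECAM1, CDH5, KDR, VWF, EMCN and ESAM lay under the filter, while TIE1 and TEK, receptors known from endothelium, did not. The summed intensity of the endothelial list was 1933, 2425 and 2440 with H2, H3 and H4, against 3070 on the scrambled array, and TIE1 and TEK made up most of the difference. TIE1 read 285.9, 481.9 and 483.9, against 909.5 on the scrambled array, while CLDN5 was higher with H2 (212.8, against 181.7) and ERG was higher with H4 (269.1, against 201.5). The part of these cell markers in the lower Notch genes described below was not tested. The summed intensity of 9 measured leukocyte markers was 2892, 4661 and 3925 with H2, H3 and H4, against 4263 on the scrambled array, and that of 7 fibroblast and pericyte markers was 3727, 6612 and 6748, against 6137. The low H2 sums came mainly from CD68 and LAPTM5 in the leukocyte list and from COL1A1 in the other one, where PDGFRA and LUM were highest with H2, and the part of these lists was not tested either.

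Compared with the scrambled array, 7 of the 10 Notch genes were lower with all 3 hairpins and 1 (JAG1) was higher with all 3. Among all 13813 genes, 30.6% were lower with every hairpin and 16.9% were higher with every hairpin. LFNG was furthest below the scrambled array, at 72.0% of its level, followed by NOTCH2 at 78.2%, DLL1 at 83.8% and MAML2 at 86.5%. JAG1, at 121% of the scrambled level, stood on the other side. In RNA from a whole culture, fewer cells with a transcript and less of it per cell cannot be told apart. The median difference over the 10 genes was -0.15 on the log2 scale, beside -0.035 over all genes. The H2 array alone gave a median of -0.21, the H3 array -0.12 and the H4 array -0.11. Over all genes these medians were -0.0295, -0.0207 and -0.0459. When each array was centred on its median, or normalized again by quantiles or cyclic loess, 6 of the 10 were lower with every hairpin, beside 23.3% to 26.5% of all genes, since MAML2 was then marginally above the scrambled array with H4. No Notch gene passed limma's moderated test of the 3 hairpins against the scrambled array (0 of 10 at a Benjamini-Hochberg adjusted p of 0.05, and 0% of all genes). At an unadjusted p under 0.05 in limma, 1 of the 10 (LFNG) was lower, as were 2.48% of all genes, and 0 were higher (0.746% of all genes). The adjusted p was 0.9998 for each Notch gene in limma. The 3 hairpins share the single scrambled array, so an error of that array would move every difference in the same direction.

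**Figure D1:**
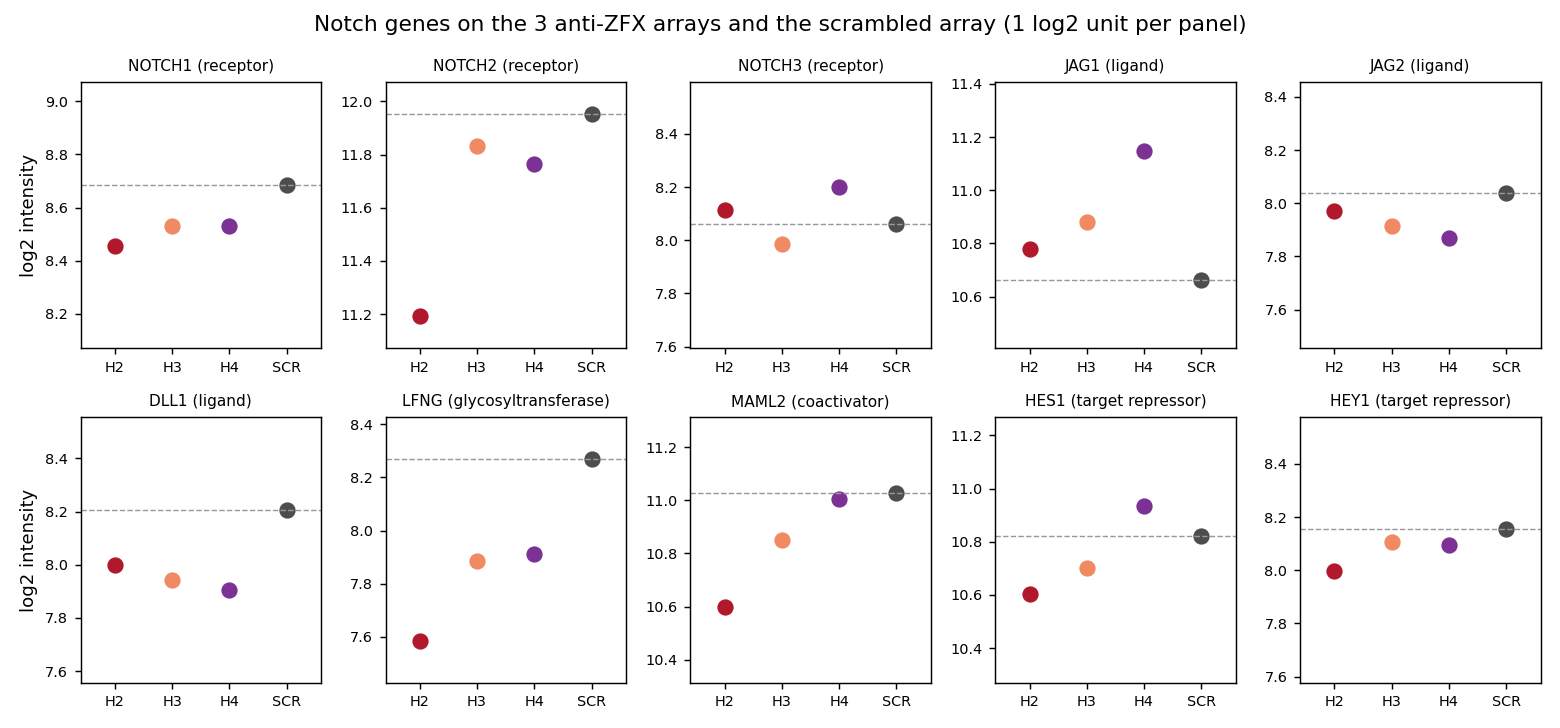
Log2 intensity (y axis, 1 log2 unit tall in every panel) of each Notch gene on the H2, H3, H4 and scrambled (SCR) arrays, 1 point per array, with the dashed line at the scrambled value. The scrambled array is the highest for 7 genes and the lowest for JAG1, and the H2 array is the lowest for 6 genes.

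The receptors are described first. NOTCH1 (probe set 8165217) read 351.5, 370.3 and 370.2 with H2, H3 and H4, against 411.7 on the scrambled array. Its 3 knockdown values lay close together and all below the scrambled one. On the log2 scale the mean difference was -0.18 ± 0.043 (SD, n = 3 hairpins), with a 95% interval from -0.50 to 0.15 in limma.

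NOTCH2 (probe set 7919095), the receptor with the widest spread, read 2341, 3649 and 3475 with H2, H3 and H4, against 3960 on the scrambled array. H2 stood apart from the other 3 arrays, at 59.1% of the scrambled level, where H3 was at 92.1% and H4 at 87.8%. Averaged over the hairpins the log2 difference was -0.36 ± 0.35 (SD, n = 3), with an interval from -1.04 to 0.33, and without H2 it was -0.15. The NOTCH2 locus has close copies on the same chromosome, the NOTCH2NL genes, so its probes may also read their transcripts.

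NOTCH3 (probe set 8034940), a receptor best known from vascular smooth muscle, read 277.3, 253.5 and 294.4 with H2, H3 and H4, against 267.2 on the scrambled array. Here H2 and H4 were above the scrambled value and H3 was below it, with log2 differences of 0.054, -0.076 and 0.14. The mean of 0.039 ± 0.11 (SD, n = 3) turned to -0.011 when H4 was left out and was 0.097 without H3.

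Among the ligands, JAG1 went the opposite way to JAG2 and DLL1. JAG1 (probe set 8064978), a ligand of the Jagged class, read 1759, 1886 and 2269 with H2, H3 and H4, against 1623 on the scrambled array. The scrambled array was the lowest and H4 the highest. The mean log2 difference was 0.27 ± 0.19 (SD, n = 3), with an interval from -0.19 to 0.73 in limma, and it was 0.17 without H4. Of all genes, 2.88% had a higher mean difference than JAG1.

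DLL1 (probe set 8130939), a Delta-like ligand known from somite formation and from neural progenitors, read 255.8, 246.2 and 239.8 with H2, H3 and H4, against 295.0 on the scrambled array. All 3 hairpins gave nearly the same value below it, at 86.7%, 83.5% and 81.3% of the scrambled level. The log2 difference averaged -0.26 ± 0.047 (SD, n = 3), and its interval ran from -0.55 to 0.04 (unadjusted p = 0.079, adjusted p = 0.9998 in limma).

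JAG2 (probe set 7981538), the other Jagged ligand, read 251.1, 241.5 and 234.1 with H2, H3 and H4, against 263.0 on the scrambled array. The 3 values were below the scrambled one by small steps. This gave a log2 difference of -0.12 ± 0.05 (SD, n = 3), with an interval from -0.41 to 0.18. JAG2 and DLL1 had their lowest value with H4, the hairpin on which JAG1 was highest.

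**Figure D2:**
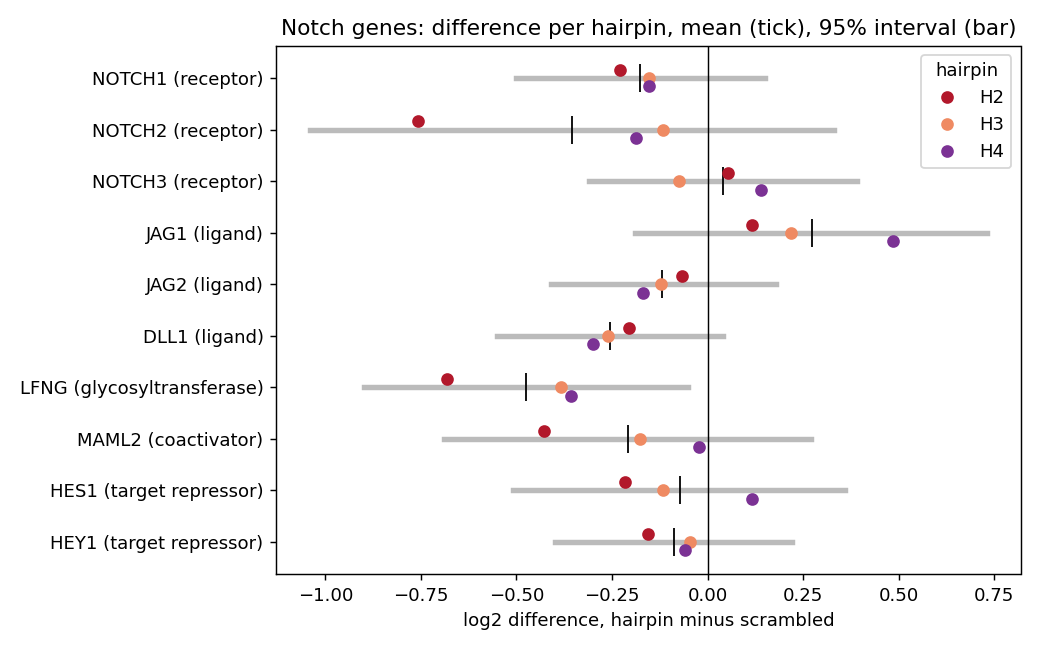
Log2 difference between each hairpin and the scrambled array (x axis) for the Notch genes (y axis), with 1 point per hairpin, a tick at the mean and a grey bar for limma's 95% interval of the mean. The bar of LFNG, from -0.90 to -0.05, is the only one of the 10 that does not include 0, and the H2 point of NOTCH2 lies at -0.76.

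LFNG, lunatic fringe, adds N-acetylglucosamine to fucose on the receptor's extracellular repeats and is itself a Notch target in the segmentation clock of the embryo. LFNG (probe set 8131143) read 192.2, 236.4 and 240.7 with H2, H3 and H4, against 308.3 on the scrambled array. The scrambled array was the highest, H3 and H4 lay together below it, and H2 was the lowest. Over the hairpins the log2 difference was -0.47 ± 0.18 (SD, n = 3; SE 0.17 in limma), with an interval from -0.90 to -0.05, and 2.74% of all genes had a lower mean difference. The unadjusted p was 0.036 and the adjusted p was 0.9998 in limma. Exchanging the scrambled label over the 4 arrays in an exact permutation test gave p = 0.25 (two-sided), which is the smallest that 4 arrays allow. LFNG was the 1 Notch gene at or below 80% of the scrambled level with each of H2, H3 and H4, as were 1.9% of all genes. No Notch gene was at or above 125% of the scrambled level with each of them (0 of 10, and 0.369% of all genes).

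MAML2 (probe set 7951133), a Mastermind-like coactivator that bridges the Notch intracellular domain to histone acetyltransferases, read 1551, 1846 and 2053 with H2, H3 and H4, against 2087 on the scrambled array. The values with H2 and H3 were below the scrambled one, and that with H4 was nearly equal to it at 98.4%. The mean log2 difference was -0.21 ± 0.20 (SD, n = 3), with an interval from -0.69 to 0.27, and it was -0.10 without H2.

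The readout end of the pathway is shown by its target genes. HES1 (probe set 8084880), a basic helix-loop-helix repressor of neuronal differentiation, read 1555, 1666 and 1958 with H2, H3 and H4, against 1808 on the scrambled array. H2 and H3 were below the scrambled array and H4 was above it, at 86.0%, 92.2% and 108% of its level. Its log2 difference of -0.073 ± 0.17 (SD, n = 3) had an interval from -0.51 to 0.36 in limma. Without H2 it was -0.0015, and without H4 it was -0.17. HEY1 (probe set 8151457), a related repressor, read 255.8, 275.9 and 273.2 with H2, H3 and H4, against 284.8 on the scrambled array. All 3 were slightly lower, by -0.087 ± 0.059 on average (log2, SD, n = 3), with an interval from -0.40 to 0.22, and it was -0.053 without H2.

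The promoter windows of HES1 and LFNG are shown because they are the ones among the Notch genes in which the core letters bound by RBPJ, TGGGAA, were found on either strand. RefSeq promoter windows (GRCh38.p14, 250 bases before to 50 bases after the start) were given for 8 of the 10 genes, as 9 windows, since LFNG has 2 starts. The HES1 window (chr3:194135898-194136197, plus strand) holds the core 2 times, starting 84 and 70 bases before the start, and the LFNG windows (chr7:2512279-2512578 and chr7:2517613-2517912, plus strand) hold it 1 time each, starting 5 and 248 bases before the start. The sequences run 5′ to 3′ with the RBPJ core, on either strand, in capitals.
HES1: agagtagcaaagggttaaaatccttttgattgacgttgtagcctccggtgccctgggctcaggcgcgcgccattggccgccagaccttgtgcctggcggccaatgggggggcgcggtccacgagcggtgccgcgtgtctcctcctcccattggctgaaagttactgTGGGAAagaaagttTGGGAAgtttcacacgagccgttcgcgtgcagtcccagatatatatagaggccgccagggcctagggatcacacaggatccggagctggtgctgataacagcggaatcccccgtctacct
LFNG, upstream start: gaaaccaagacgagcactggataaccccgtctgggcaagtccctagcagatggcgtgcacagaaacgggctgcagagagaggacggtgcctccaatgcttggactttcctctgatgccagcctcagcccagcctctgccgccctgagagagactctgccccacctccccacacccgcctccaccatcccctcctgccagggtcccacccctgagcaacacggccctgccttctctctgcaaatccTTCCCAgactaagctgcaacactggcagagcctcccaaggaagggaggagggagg
LFNG, downstream start: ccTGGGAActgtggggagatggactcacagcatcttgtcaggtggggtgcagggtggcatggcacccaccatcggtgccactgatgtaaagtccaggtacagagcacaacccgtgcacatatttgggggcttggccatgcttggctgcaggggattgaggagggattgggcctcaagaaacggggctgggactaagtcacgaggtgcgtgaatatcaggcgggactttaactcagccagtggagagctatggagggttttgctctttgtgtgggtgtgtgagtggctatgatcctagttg
Of 35116 promoter windows of all genes, 24.0% hold the RBPJ core at least 1 time and 3.8% hold it 2 or more times, on either strand. The letters AGGCCT, the core of the motif reported for ZFX and the same on both strands, were in 0 of the 9 windows and in 10.9% of all windows. A match or its lack says nothing of binding in these cells.

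Each hairpin was also set against the scrambled array alone, where the shares over all genes differ between hairpins too. With H2, 3 of the 10 Notch genes (NOTCH2, LFNG and MAML2) were at or below 80% of the scrambled level, as were 15.4% of all genes, and 0 were at or above 125% of it (5.42% of all genes). With H3, 1 gene (LFNG) was at or below 80% (5.91% of all genes) and 0 were at or above 125% (3.58%). With H4, LFNG was at or below 80% (9.25% of all genes) and JAG1 was at or above 125% (2.97%). At the stricter limit of 1.5-fold, NOTCH2 and LFNG were lower with H2 (5.61% of all genes) and 0 were higher (0.992%). None of the 10 passed 1.5-fold with H3, where 1.14% of all genes were lower and 0.528% higher, or with H4, where the shares were 2.17% and 0.608%. H2 was the lowest of the 4 arrays for 6 of the 10 genes (32.5% of all genes), H3 for 1 (20.5%) and H4 for 2 (30.1%). These comparisons have 1 array a side and no test.

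**Figure D3:**
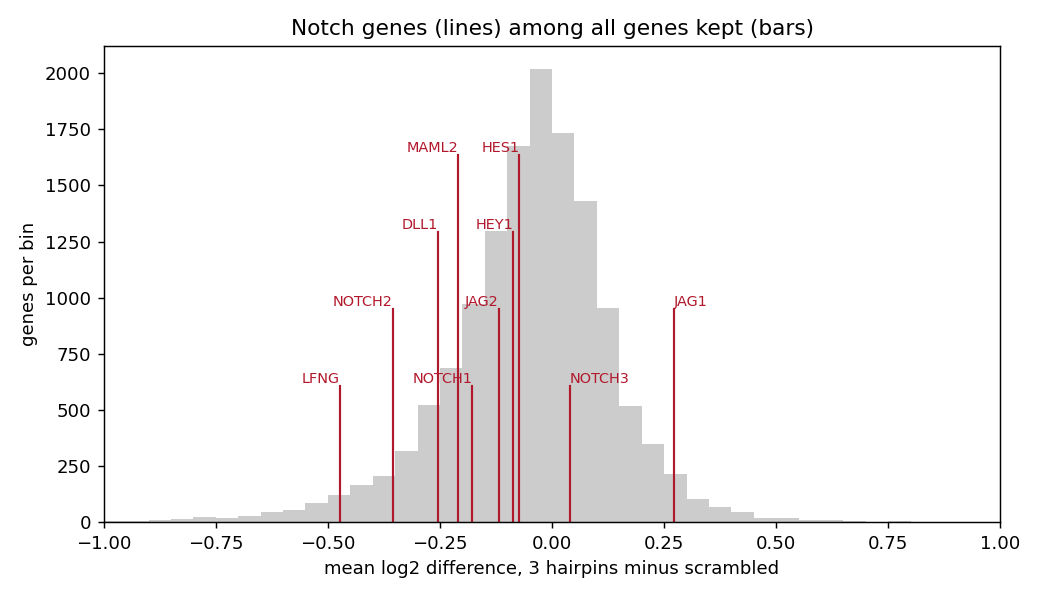
Number of genes (y axis) by mean log2 difference between the 3 hairpins and the scrambled array (x axis, bins of 0.05), over the 13813 genes kept, with a red line at each Notch gene; line heights carry no value. LFNG at -0.47 and NOTCH2 at -0.36 lie in the lower tail, JAG1 at 0.27 in the upper one, and HES1 and HEY1 near the centre.

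The genes most like the 2 members with the largest differences were sought over the 3 hairpin differences, as the smallest Euclidean distance on the log2 scale, which describes 3 values that share 1 scrambled array. Nearest to LFNG were MVB12B (distance 0.049), CLTCL1 (0.059) and B4GALT5 (0.065). Nearest to NOTCH2 were MOV10 (0.06), TRAF5 (0.064) and B4GALT6 (0.069). MOV10, an RNA helicase, differed by -0.76, -0.18 and -0.21 with H2, H3 and H4, where NOTCH2 differed by -0.76, -0.12 and -0.19. MVB12B, a subunit of a membrane-sorting complex, differed by -0.71, -0.35 and -0.33, where LFNG differed by -0.68, -0.38 and -0.36.

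A further 56 genes of the pathway were listed by role. Of these, 50 had a probe set with 1 symbol and 48 were kept. With all 3 hairpins, 13 of the 48 were lower and 6 were higher, against 30.6% and 16.9% of all genes, and 0 passed the adjusted threshold in limma. Their median difference was -0.029, near the -0.035 of all genes. Centring the arrays on their medians turned the counts to 8 and 8, beside 23.3% and 23.6% of all genes.

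The remaining glycosyltransferases were lower with every hairpin in 3 of 3 kept cases, beside 30.6% of all genes. They also were under the 3 other scalings, beside 23.3% to 26.5% of all genes. RFNG, radical fringe, read 229.1, 208.9 and 244.6 with H2, H3 and H4, against 259.0 on the scrambled array. POGLUT1 and POFUT1, which glucosylate and fucosylate the receptor, had mean log2 differences of -0.18 ± 0.075 and -0.15 ± 0.071 (SD, n = 3). RFNG had -0.19 ± 0.11, and all of these intervals include 0 in limma. Manic fringe, MFNG, lay under the intensity filter.

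Among the proteases, FURIN, which cleaves the receptor on its way to the surface, was higher with every hairpin. It read 718.1, 883.1 and 945.2 with H2, H3 and H4, against 574.4 on the scrambled array. The mean log2 difference was 0.55 ± 0.21 (SD, n = 3), with an interval from 0.05 to 1.06 (unadjusted p = 0.036, adjusted p = 0.9998 in limma). FURIN was the 1 gene of the 48 kept at or above 125% of the scrambled level with each of the hairpins (0.369% of all genes). At or below 80% with each of them were 0 of the 48 (1.9% of all genes). Of the 7 other kept proteases, only APH1B, a gamma-secretase subunit, was on the same side with all 3 hairpins, where 30.6% of all genes were lower and 16.9% higher. The lower side of APH1B rested on H2, where it differed by -0.60 against -0.033 and -0.056 with H3 and H4 (mean -0.044 without H2).

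In the nuclear complex, RBPJ, the DNA-binding partner of the Notch intracellular domain, read 1852, 2935 and 2726 with H2, H3 and H4, against 2983 on the scrambled array. As for NOTCH2, only the H2 array stood clearly apart. Its mean log2 difference was -0.28 ± 0.36 (SD, n = 3) and -0.077 without H2, and centring the arrays on their medians put the H3 value above 0. Averaging all probe sets of RBPJ gave -0.33, -0.074 and -0.010 with H2, H3 and H4, with a mean of -0.14. KAT2B, a histone acetyltransferase, read 481.5, 503.6 and 754.6, against 443.3 on the scrambled array, and rested on H4, with a mean log2 difference of 0.36 with it and 0.15 without it. SNW1, which joins the complex, differed by 0.087 ± 0.045.

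Of the other receptors and ligands, DLK1, a Delta-like protein that lacks the receptor-binding region of the ligands, read 213.3, 224.0 and 346.5 with H2, H3 and H4, against 191.3 on the scrambled array, so that H4 set its mean log2 difference of 0.41 ± 0.39 (SD, n = 3), which was 0.19 without H4. DLL3 differed by -0.071 ± 0.055, and by -0.040 without H4. In the endocytosis and degradation group, 4 of 13 were lower with every hairpin, beside 30.6% of all genes. Under each of the 3 other scalings 3 were, beside 23.3% to 26.5%. Higher with every hairpin were 0 of the 13, beside 16.9% of all genes, and 1 (NUMBL) after quantile normalization, beside 22.0%. AAK1, a kinase of clathrin-coated pits, had a mean of -0.21 ± 0.26 that rested on H2 (-0.059 without it) and was above 0 with H3 and H4 when its probe sets were averaged, while DTX4, a Deltex ubiquitin ligase, had -0.19 ± 0.088 and NEURL1, which ubiquitinates ligands, had -0.084 ± 0.037.

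Among the further target genes, mean log2 differences ran from -0.095 for HES4 to 0.18 for HEY2. HEY2, a relative of HEY1, read 544.0, 505.3 and 439.1 with H2, H3 and H4, against 437.3 on the scrambled array. The mean log2 difference was 0.18 ± 0.16 (SD, n = 3), and 0.11 without H2. HES4 had -0.095 ± 0.085, or -0.048 without H4, and HEYL had -0.032 ± 0.018. HES4 was no longer lower with every hairpin under any of the 3 other scalings, and HEYL was not when the arrays were centred on their medians. Of the 8 targets, 2 were lower and 2 were higher with all 3 hairpins, beside 30.6% and 16.9% of all genes. The median over the 8 was -0.003.

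**Figure D4:**
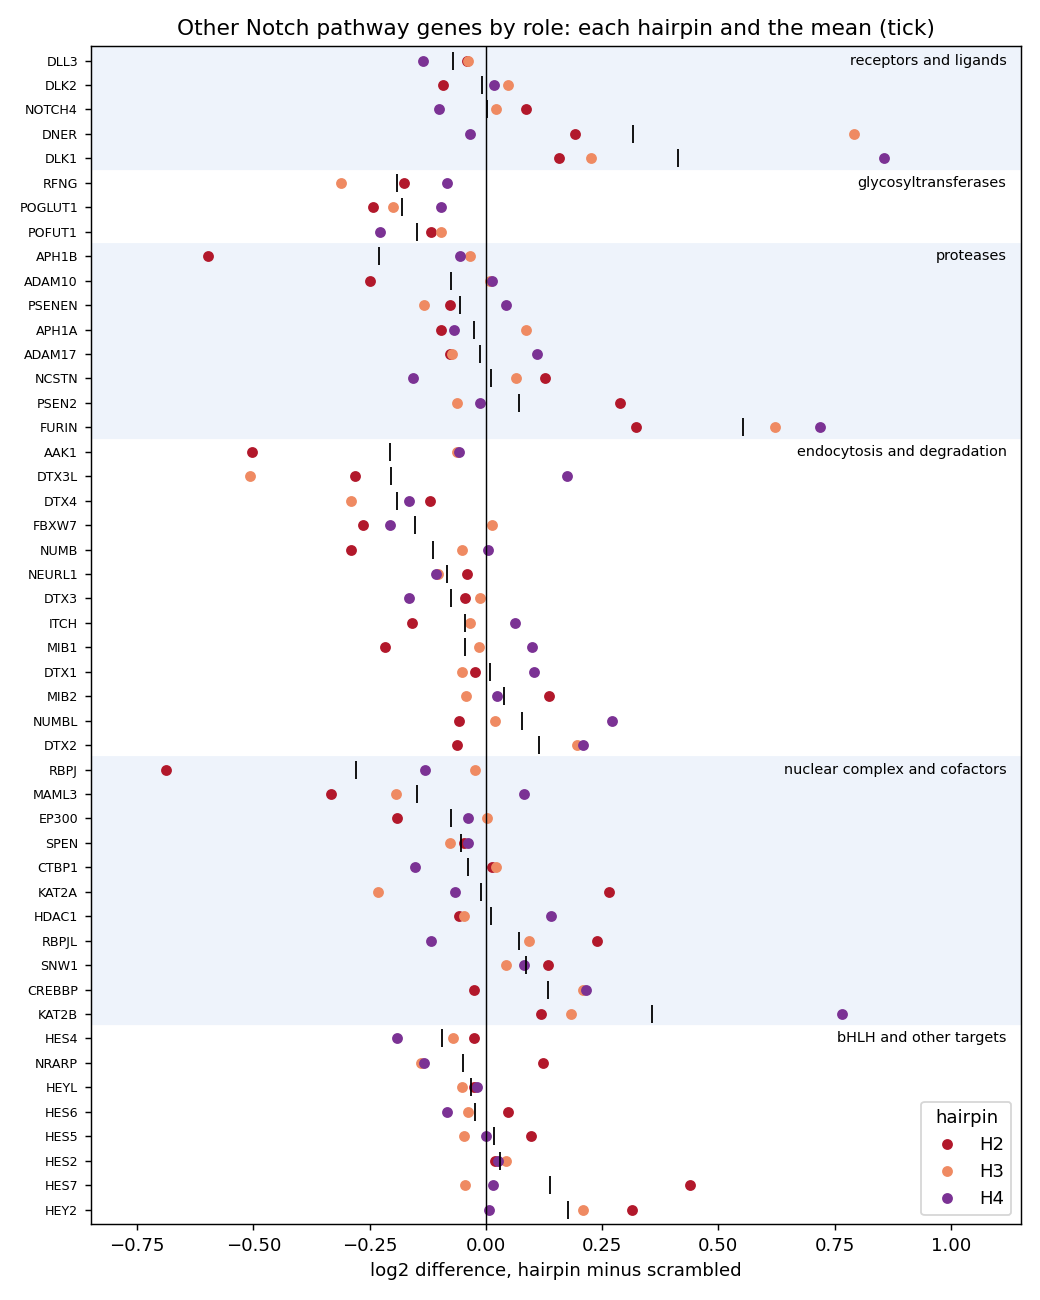
Log2 difference between each hairpin and the scrambled array (x axis) for the 48 other Notch pathway genes kept (y axis, grouped by role), with 1 point per hairpin and a tick at the mean. FURIN has all 3 points above 0.3, and RBPJ, APH1B and AAK1 each have the H2 point below -0.5, with H3 and H4 between -0.13 and 0.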

How the data were processed

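RNA from 4 DAOY cultures (250 ng each) was biotin-labelled and hybridised to whole-transcript arrays. The authors deposited 1 intensity per probe set on a linear scale, obtained with RMA according to the submitters' processing notes. The sources used here give neither the version of RMA nor a genome build. Since RMA brings the arrays' distributions close together, though not to equality here (medians of 226 to 232.3), a shift in RNA content per cell would not show. Detection calls and batch labels were not used here, and the number of arrays limits the precision.

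Log2 of each deposited intensity was taken. Of 33297 probe sets, 19460 have 1 gene symbol, and of the genes with several, the probe set with the highest mean was kept. Genes below the 25th percentile of mean intensity were left out. The 3 knockdown arrays were compared with the scrambled one in limma (version 3.58.1 in R 4.3.3; lmFit, then eBayes with its trend option), on 2 residual degrees of freedom, with Benjamini-Hochberg adjustment over 13813 genes. Only the hairpins contribute to the spread, which the scrambled array is assumed to share, and p-values cover the spread between these samples only. Differences are knockdown minus scrambled. The 10 genes, the pathway and marker lists and the rules for the named genes (per role, up to 3 genes with the largest differences among those with 1 sign in every hairpin; the 3 nearest genes of 2 members) were chosen with earlier results of these data known. Alternatives changed the scaling, filter, probe set rule, variance trend and hairpins used. Tables and figures used Python 3.11.15, pandas 2.3.3 and matplotlib 3.10.9.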

Additional observations from a re-analysis of the deposited data

How the results depend on the processing

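The counts of Notch genes and the median difference over them were recomputed under 3 other scalings, 2 other filters, another probe set rule and without each hairpin in turn, and the limma counts also without the intensity trend. The count of genes past an adjusted p of 0.05 stayed at 0 under each of these 10 alternatives, and so did that of the Notch genes. The median over the Notch genes kept its sign throughout and ran from -0.18 to -0.12 when a hairpin was left out. The count of Notch genes lower with every hairpin used was 7 to 8 when 1 was left out (39.4% to 40.6% of all genes) and 3 with the filter at the 50th percentile, which keeps only 5 of the 10 (31.8% of all genes). The count higher with every hairpin used was 1 to 2 when 1 was left out (23.5% to 27.9% of all genes). Without 1 hairpin the mean of NOTCH3 ran from -0.011 (without H4, a reversal) to 0.097, and no other Notch gene changed the sign of its mean difference under these alternatives. Of the other pathway genes, 8 were lower with every hairpin after centring on array medians, against 13 before it. Of all genes, 23.3% were, against 30.6% before centring. RBPJ, DTX3, HES4, HEYL and SPEN left the count, each with at least 1 hairpin then 0.001 to 0.021 (log2) above the scrambled array. With the filter at the 50th percentile, which keeps 28 of the other pathway genes, 7 were lower (31.8% of all genes). The count was 16 to 22 when 1 hairpin was left out (39.4% to 40.6% of all genes), since fewer arrays had to pass. No paired analysis was possible because the control group holds 1 array. With 1 scrambled array its own error was not measured, and differences of dim genes (LFNG, JAG2, DLL1, HEY1 and NOTCH3, at mean log2 intensities of 7.91 to 8.09) had no background value to be set against.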

Other observations

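A few more pathway genes differed from the scrambled array with single hairpins and were named after their values were seen. DNER, a Notch-binding protein of neurons, was above the scrambled array by 0.19 (log2) with H2 and by 0.79 with H3, and differed by -0.033 with H4. In the same hairpin order, DTX3L, a ubiquitin ligase of the Deltex family that is known as interferon-inducible, differed by -0.28, -0.51 and 0.17. HES7, the repressor of the segmentation clock, differed by 0.44, -0.045 and 0.016. MAML3, a relative of MAML2, differed by -0.33, -0.19 and 0.083. DTX3L, HES7 and MAML3 had hairpins above and below the scrambled value, as did DNER in the values as deposited, whose H4 difference became 0.006, 0.027 and 0.012 after centring, quantile normalization and cyclic loess. A single hairpin has no test.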
